A study of Mus musculus with 24 samples.

Results

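The 47 genes described here encode the secreted Wnt ligands, the receptors and co-receptors that bind them, the R-spondins and their Lgr receptors, the secreted and intracellular antagonists, and the Tcf/Lef factors Tcf7 and Lef1. They were taken by symbol: Wnt, Fzd, Sfrp, Dkk and Rspo followed by a number, plus Frzb, Wif1, Lrp5, Lrp6, Axin1, Axin2, Lef1, Tcf7, Lgr4, Lgr5, Lgr6, Nkd1, Notum, Znrf3 and Rnf43. Of the 31420 genes in the annotation sheet, 55 met the symbol rule, and 47 of these also reached 0.5 CPM (read counts scaled to the library total in units of 1 M) in the mean of at least one of the 8 groups. The last ones in were Wnt3, Wnt6 and Frzb, with highest group means of 0.593, 0.804 and 0.822 CPM. The first ones left out were Wnt9b, Wnt16 and Fzd9, at 0.427, 0.273 and 0.260 CPM, and the other 5 below the minimum were Wnt10a, Dkk1, Dkk4, Sfrp5 and Rspo4os. Fzd10os, a transcript on the strand opposite to Fzd10, also met the rule by its letters and is counted among the 47, although it encodes no Wnt receptor.

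Lung RNA was sequenced from C3H/HeN mouse pups whose parents had been fed, from before mating, a selenium-sufficient (SeS, 0.4 ppm sodium selenite) or selenium-deficient (SeD, less than 0.01 ppm) diet. The pups stayed in room air (RA, FiO2 0.21) or were placed in hyperoxia (O2, FiO2 0.85) on the day of birth, with dams rotated between the gases, and lungs were taken at postnatal day 1 (PN1) or 3 (PN3). The 8 groups were thus SeS RA, SeD RA, SeS O2 and SeD O2 at each age, with 3 libraries in each. No gene was altered in any group, lungs were perfused before freezing, and each library is 1 mouse. The sources do not say which pups shared a litter, so the p-values measure the spread between these libraries. SeS O2 PN1 replicate 2 was titled as hyperoxia but carried an oxygen entry of 0.21. Its title decided its group, which is also the one in the deposited sheet of groups.

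Wnt proteins are lipid-modified ligands that bind Frizzled receptors. With the co-receptors Lrp5 and Lrp6 they keep β-catenin from being degraded, and β-catenin then acts on genes through Tcf/Lef factors, while ligands such as Wnt5a and Wnt11 mostly act without β-catenin on cell shape and polarity. R-spondins bound to Lgr receptors remove the ubiquitin ligases Znrf3 and Rnf43, which otherwise clear Frizzled from the cell surface. In the developing lung Wnt2 and Wnt2b specify the lung field, Wnt7b acts from the epithelium, and Wnt5a from the mesenchyme helps to shape the distal airspaces.

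Library totals ran from 26 to 50.4 M counts, with a median of 32.6 M. Some libraries held transcripts of other sources. SeD O2 PN3 replicate 1 summed to 65800 CPM over 7 liver markers. SeD O2 PN1 replicates 1 and 2 summed to 7270 and 4680 CPM, and the remaining libraries to 1780 CPM or less. SeD O2 PN1 replicate 1 also summed to 2030 CPM over 6 heart muscle markers, against 955 CPM or less elsewhere. SeD O2 PN1 replicate 3 summed to 486 CPM over 5 oesophagus and squamous epithelium markers, against 3.74 CPM or less elsewhere. SeS RA PN3 replicate 2 summed to 187 CPM over 8 lymphocyte and thymus markers, against 76.3 CPM or less elsewhere. The 1399 olfactory and vomeronasal receptor genes, which lung cells hardly use, summed to between 21.5 and 41.8 CPM in 10 of the 12 RA libraries, to 282 and 737 CPM in SeD RA PN1 replicates 1 and 2, and to between 97.0 and 399 CPM in the O2 libraries. Alveolar type 2 markers, surfactant genes among them, summed to at least 8630 CPM in every library. Levels in a bulk lung cannot tell fewer cells of a type from less RNA per cell. The libraries were made from poly(A) RNA with a stranded kit, but the strand setting used in counting is not given in the sources used here, so Fzd10 and Fzd10os, Wnt10b and Wnt1, Wnt5b and Fbxl14, and other pairs that overlap on opposite strands cannot be told apart with certainty.

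Fzd1 and Fzd2 were the most abundant of the 47 genes per length, with means over the 24 libraries of 28.5 and 25.9 CPM per kb of exon. Next came the secreted antagonist Sfrp2 (22.1 CPM per kb) and the Dickkopf gene Dkk3 (20.6 CPM per kb), then Fzd4 (18.2), Rspo1 (14.1), Fzd7 (13) and Tcf7 (11.4 CPM per kb). The 9 Frizzled receptors together made up 106 of the 304 CPM per kb summed over all 47 genes, and the 13 Wnt ligands 51.0 CPM per kb. Among the ligands Wnt3a (10.2 CPM per kb), Wnt7a (9.61), Wnt5a (7.30) and Wnt2 (6.52 CPM per kb) were highest. Lgr4 was the highest of the Lgr receptors at 2.04 CPM per kb, and Lgr5, a marker of stem cells in gut and other tissues, was second lowest of all at 0.123 CPM per kb. The lowest level per length was that of Wnt3, at 0.0890 CPM per kb. In all, 37 of the 47 genes had a mean of at least 5 CPM.

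**Figure D1:**
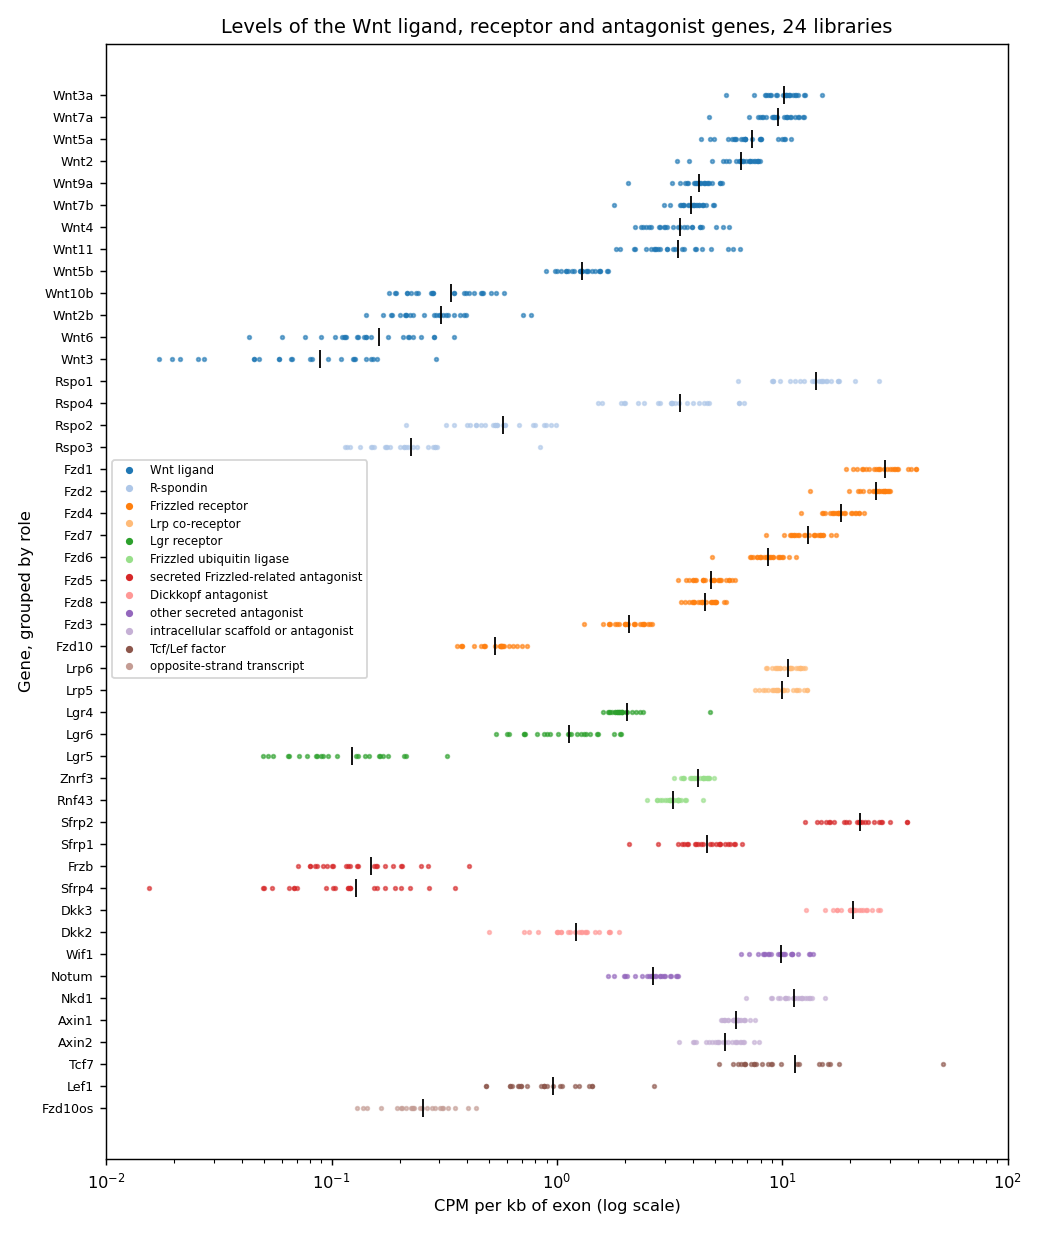
Level of each of the 47 genes in CPM per kb of exon (log axis), grouped by role; each dot is 1 of 24 libraries and the black tick is the mean. Fzd1 and Fzd2 lie highest, at 28.5 and 25.9 CPM per kb, and Wnt3 lowest, at 0.0890 CPM per kb.

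Promoter letters were looked at for genes that fell together in O2 at PN3, as given further on. RefSeq windows (build GRCm38.p6, an older build than that of the counts) were at hand for 29 of the 47 genes, 37 windows in all, and the 250 bases before each start were searched on both strands. The Tcf/Lef core (the letters CTTTG, then A or T, then again A or T) was present in 4 of the 37 windows, or 10.8%, against 14.8% of all 32851 windows. The antioxidant response element TGACNNNGC, the letters bound by NRF2 with small Maf proteins, was present in 4 of the 37 windows, or 10.8%, against 10.2% of all windows. Of the genes lower in O2 in both diets, 7 had windows, and 2 of the 7 (28.6%), Fzd7 and Lef1, held the Tcf/Lef core in one of them, against 16.8% of all genes with a window. None of the 7 held the antioxidant element, against 11.5% of all genes. With so few windows, and 18 of the 47 genes without one, the shares are only a description, and a match says only which letters are there. The windows with a match among the genes that fell in O2 are printed 5′ to 3′ on the strand of the gene, with the match in capitals. They are Fzd7 (chr1:59481897-59482146, plus strand, Tcf/Lef core read on the opposite strand), 1 of 4 starts of Lef1 (chr3:131156044-131156293, plus strand, Tcf/Lef core on the opposite strand), both starts of Wnt11 (chr7:98834862-98835111 and chr7:98838595-98838844, plus strand, Tcf/Lef core in the first and the antioxidant element in the second, both on the opposite strand) and 1 of 3 starts of Wnt5b (chr6:119449387-119449636, minus strand, the antioxidant element on the opposite strand, then the Tcf/Lef core).
Fzd7: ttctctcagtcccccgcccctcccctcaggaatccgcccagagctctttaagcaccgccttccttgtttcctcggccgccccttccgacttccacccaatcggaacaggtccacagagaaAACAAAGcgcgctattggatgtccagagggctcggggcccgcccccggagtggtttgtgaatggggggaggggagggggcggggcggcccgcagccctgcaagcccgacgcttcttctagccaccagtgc
Lef1: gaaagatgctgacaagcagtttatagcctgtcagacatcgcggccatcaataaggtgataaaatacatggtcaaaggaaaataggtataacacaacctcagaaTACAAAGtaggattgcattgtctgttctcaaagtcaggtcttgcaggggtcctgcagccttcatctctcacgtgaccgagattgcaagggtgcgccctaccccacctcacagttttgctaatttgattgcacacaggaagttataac
Wnt11, first start: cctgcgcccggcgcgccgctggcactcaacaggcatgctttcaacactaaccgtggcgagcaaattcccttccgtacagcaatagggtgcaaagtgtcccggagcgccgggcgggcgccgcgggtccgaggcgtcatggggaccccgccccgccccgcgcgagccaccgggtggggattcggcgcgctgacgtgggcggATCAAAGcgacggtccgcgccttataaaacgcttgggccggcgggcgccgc
Wnt11, second start: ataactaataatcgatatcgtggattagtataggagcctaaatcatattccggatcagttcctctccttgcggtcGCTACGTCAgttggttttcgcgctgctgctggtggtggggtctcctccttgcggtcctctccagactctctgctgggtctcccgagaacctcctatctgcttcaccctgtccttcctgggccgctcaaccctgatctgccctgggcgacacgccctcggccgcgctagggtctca
Wnt5b: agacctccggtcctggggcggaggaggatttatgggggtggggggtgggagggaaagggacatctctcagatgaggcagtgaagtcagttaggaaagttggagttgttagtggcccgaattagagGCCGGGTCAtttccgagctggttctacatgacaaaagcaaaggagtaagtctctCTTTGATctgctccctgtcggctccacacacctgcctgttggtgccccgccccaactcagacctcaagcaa

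The clearest change in these genes was a fall in O2 at PN3, seen in both diets. Against RA, 12 of the 47 genes were lower and 1 higher in SeS O2, and 23 were lower and 3 higher in SeD O2. Wnt5a, Fzd1, Fzd3, Fzd7, Rspo2, Lgr6, Axin2, Notum, Wif1, Tcf7 and Lef1 fell in both, and Lgr5 rose in both. A gene was called when its adjusted p was under 0.05 and its absolute log2 fold change above 0.25, by edgeR's quasi-likelihood test with Benjamini-Hochberg adjustment over the 23831 genes tested, and adjusted p below refers to this test. Of all genes tested 11.5% were called lower and 16.1% higher in SeS, and 12.2% lower and 23.7% higher in SeD, so 27.6% and 35.9% were called in all. Among the 37 members with a mean of at least 5 CPM, 12 and 21 were lower and 0 higher, beside 19.5% and 20.5% lower and 4.28% and 8.43% higher among all 12591 genes at that level. The median log2 fold change of the 47 genes was -0.26 in SeS and -0.35 in SeD, and that of all genes was 0.04 and 0.05. The 11 shared genes were 91.7% of those lower in SeS and 47.8% of those lower in SeD, and the comparisons have no library in common. The same overlap was not counted over all genes tested, so these shares do not set the 47 genes apart from other genes.

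These counts moved with single libraries. When SeD O2 PN3 replicate 1, which held the liver transcripts, was left out, 17 genes were called in SeD, 16 of them among the original 26. Without SeS RA PN3 replicate 3, 8 were called in SeS, all among the original 13. The 3 libraries with the most Alb, the liver transcript of albumin, were SeD O2 PN3 replicate 1 and SeD O2 PN1 replicates 1 and 2. Without them the counts were 23 in SeS and 20 in SeD, with all 13 and 18 of the original 26 among them. With another scaling (RLE) 11 genes were lower and 3 higher in SeS, and 19 lower and 3 higher in SeD.

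**Figure D2:**
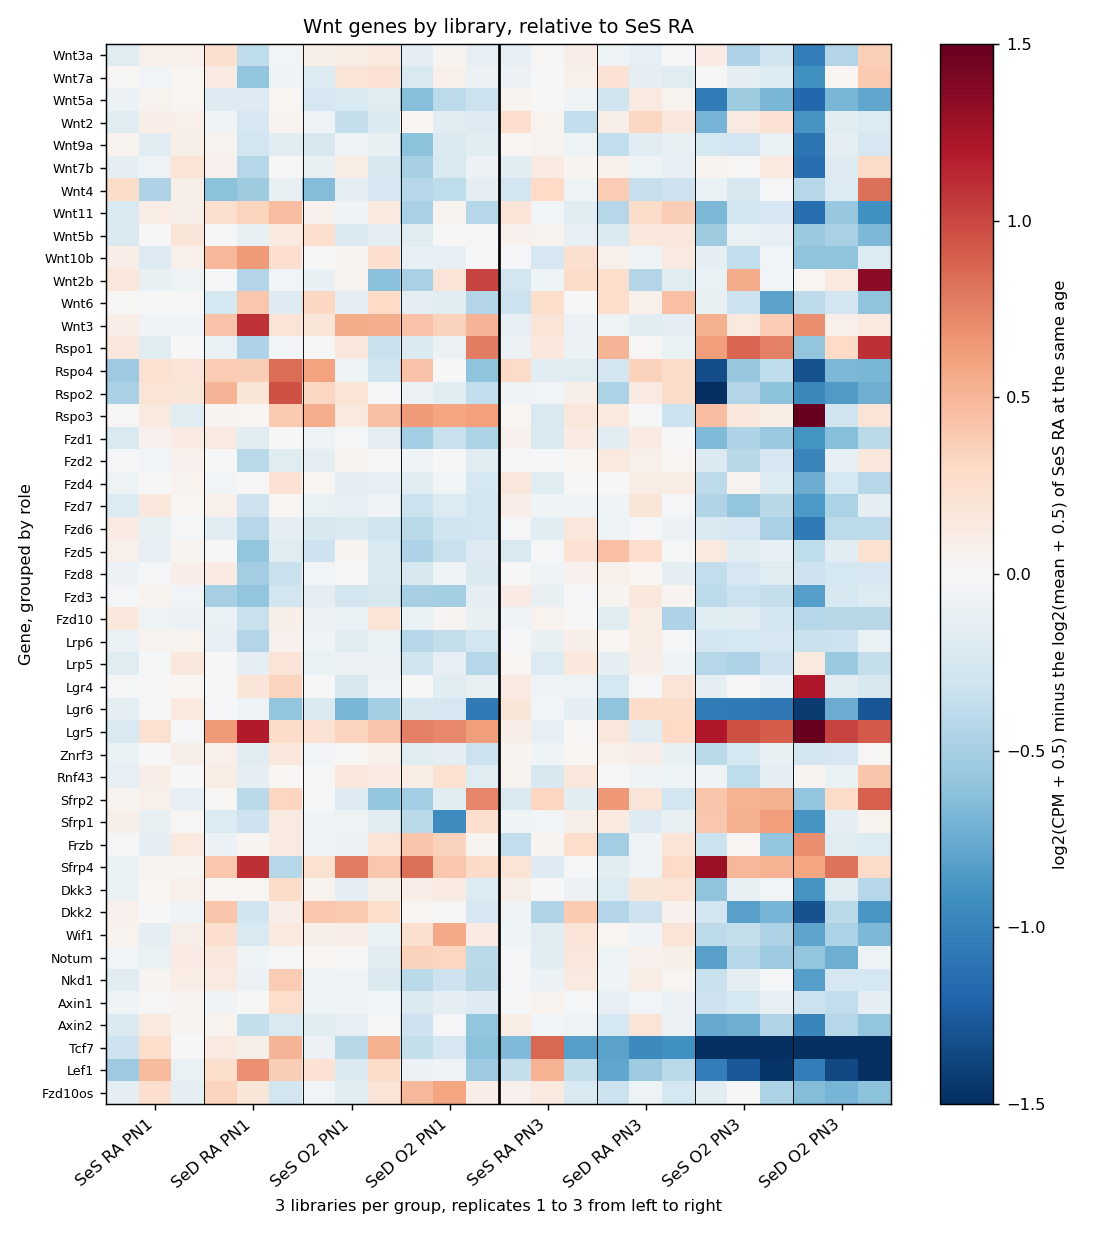
Each row is 1 of the 47 genes and each column 1 of 24 libraries; the colour gives log2(CPM + 0.5) minus the value of the SeS RA mean at the same age, with colours saturated at 1.5 in either direction. Most rows are blue in the 6 O2 libraries at PN3, Lgr5 is red there, and Tcf7 and Lef1 are red in SeS RA PN3 replicate 2.

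Wnt5a, the mesenchymal ligand of β-catenin-independent signalling (chr14:28226495-28249405, plus strand, GRCm39), stood at 81.8, 80.3 and 77.0 CPM in the SeS RA libraries at PN3 and at 64.7, 87.9 and 82.9 CPM in SeD RA. In O2 it stood at 38.3, 54.8 and 49.3 CPM in SeS and at 35.0, 49.2 and 46.1 CPM in SeD. Every O2 library at PN3 was below every RA library. The level was 40.5% lower in SeS (log2 fold change -0.75 ± 0.14, SE, adjusted p = 0.00137) and 44.6% lower in SeD (-0.85 ± 0.14, adjusted p = 0.00035), and the call held without any 1 library.

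Wnt11, also a ligand of polarity signalling, measured 18.6, 30.6 and 32.8 CPM in SeD RA at PN3 against 11.2, 16.9 and 13.2 CPM in SeD O2. The groups did not overlap, and the difference was -0.99 ± 0.20 (log2, SE, adjusted p = 0.0013). In SeS the levels were 28.9, 24.4 and 22.3 CPM in RA and 15.6, 20.7 and 21 CPM in O2. These did not overlap either but did not pass the test (log2 fold change -0.40 ± 0.19, adjusted p = 0.134). The difference between the diets in this effect was -0.60 ± 0.28 (log2, SE) with an adjusted p of 0.602, so it was not shown to differ.

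Among the other ligands, Wnt5b fell in SeD O2 by 36.9% (adjusted p = 0.00426), from 7.23, 9.52 and 9.58 CPM to 5.6, 5.92 and 5.10 CPM. Wnt2 fell in SeD by 33.1% (adjusted p = 0.0306) and Wnt10b by 35.5% (adjusted p = 0.0227), but the Wnt2 call was lost without SeD O2 PN3 replicate 1 (log2 fold change -0.41, adjusted p = 0.133) or SeD RA PN3 replicate 2, and the Wnt10b call without any of 4 libraries. Wnt6 had few reads, 28, 24 and 32 in the SeD RA libraries and 9, 13 and 7 in SeD O2, and fell by 61.4% (adjusted p = 0.0284), a call lost without any of 4 libraries. SeD RA at PN3 was also the group with its highest raw mean, 0.804 CPM, so the level minimum favoured a fall from it. Wnt3, the ligand with the lowest level, had 3, 2 and 2 reads in SeD RA and 14, 5 and 6 in SeD O2, a ratio of 3.94 per total reads with a 95% interval of 1.66 to 10.8 for counting error only. It was called higher (adjusted p = 0.0206), and the call was lost without SeD O2 PN3 replicate 1 (adjusted p = 0.206) or SeD RA PN3 replicate 2 or 3.

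Wnt3a, Wnt4, Wnt7a, Wnt7b, Wnt9a and Wnt2b were not called in O2 against RA at PN3 in either diet. Wnt7b, which signals from lung epithelium to mesenchyme, measured 18.2, 22.5 and 21.2 CPM in SeS RA and 21.4, 20.8 and 22.8 CPM in SeS O2. These levels overlapped (log2 fold change 0.07 ± 0.23, SE). Wnt3a, the classic ligand of β-catenin signalling, had a log2 fold change of -0.20 ± 0.23 in SeS and -0.19 ± 0.23 in SeD.

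**Figure D3:**
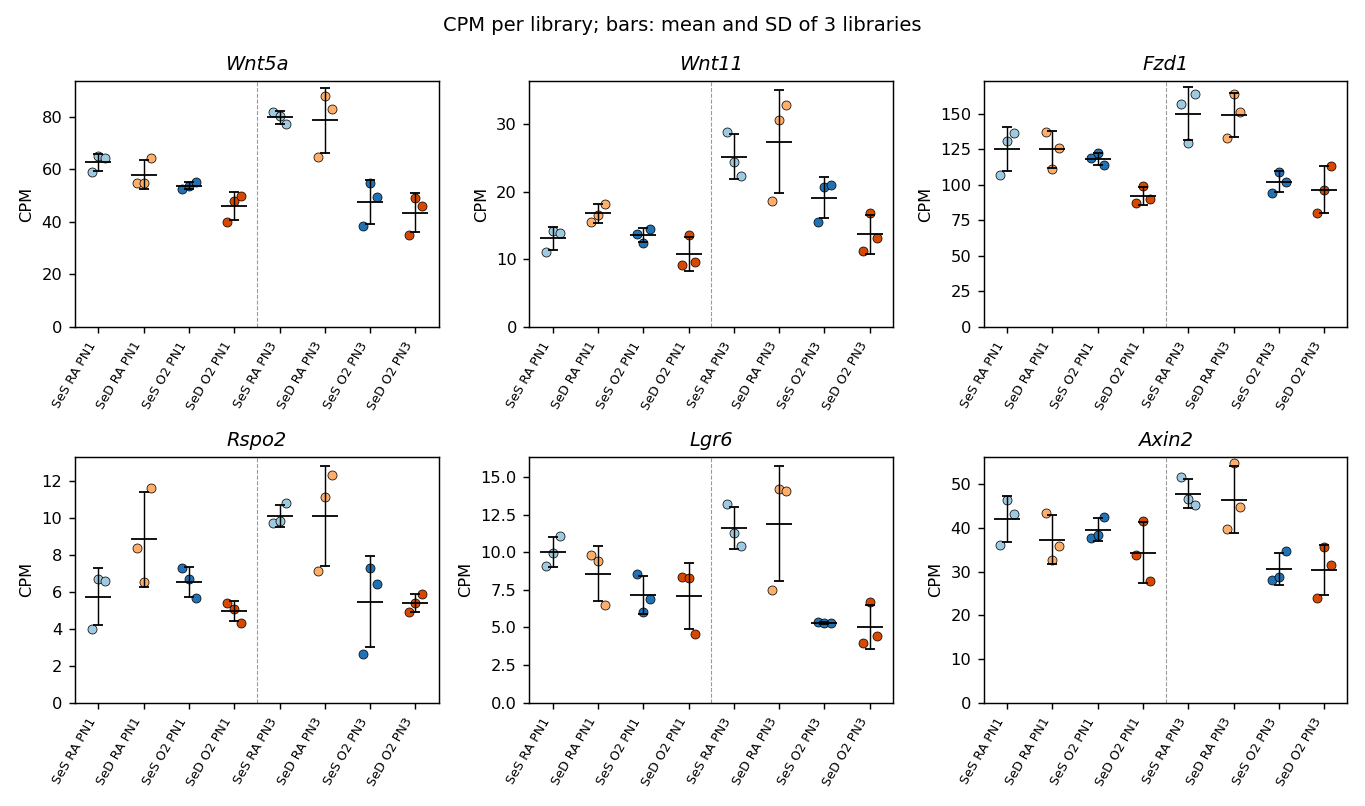
CPM of Wnt5a, Wnt11, Fzd1, Rspo2, Lgr6 and Axin2 in every library; each dot is a library, and the horizontal mark and bars give the mean and SD of 3 libraries. Left of the dashed line is PN1 and right of it PN3, where the O2 libraries of Wnt5a lie between 35.0 and 54.8 CPM and the RA libraries between 64.7 and 87.9 CPM.

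Of the 9 Frizzled receptors, Fzd1, Fzd3 and Fzd7 were lower in SeS O2, and Fzd1, Fzd3, Fzd4, Fzd6 and Fzd7 in SeD O2, with none higher, and their median log2 fold change was -0.29 in SeS and -0.49 in SeD, beside -0.20 and -0.23 for the 13 ligands. Fzd1, the most abundant of them per length, measured 157, 129 and 164 CPM in SeS RA and 133, 164 and 151 CPM in SeD RA at PN3. It measured 94.4, 109 and 102 CPM in SeS O2 and 80.1, 96.1 and 113 CPM in SeD O2, below all RA libraries. The decrease was 32.1% in SeS (log2 fold change -0.56 ± 0.13, SE, adjusted p = 0.00463) and 35.4% in SeD (-0.63 ± 0.13, adjusted p = 0.00145).

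Fzd4, a receptor for the vascular ligand norrin as well as for Wnts, fell in SeD by 31.0% (adjusted p = 0.00325), from 138, 150 and 150 CPM to 82.8, 116 and 103 CPM. In SeS it measured 157, 122 and 139 CPM in RA and 106, 144 and 121 CPM in O2, and these overlapped (log2 fold change -0.17 ± 0.13, SE, adjusted p = 0.321). The difference between the diets was -0.36 ± 0.18 (adjusted p = 0.62). Fzd7 fell by 28.5% in SeS (adjusted p = 0.0134) and 29.5% in SeD (adjusted p = 0.00725), Fzd3 by 22.2% (adjusted p = 0.0473) and 28.6% (adjusted p = 0.00791), and Fzd6 by 30.7% in SeD (adjusted p = 0.00503). The Fzd3 call in SeS was lost without any of 5 libraries. Fzd8 measured 28.7, 27.4 and 30 CPM in SeS RA and 22.1, 24 and 25.3 CPM in SeS O2 without passing the test (log2 fold change -0.27 ± 0.12, SE, adjusted p = 0.102), and gave -0.27 ± 0.12 in SeD (adjusted p = 0.086). Fzd2, Fzd5 and Fzd10 were not called in either diet.

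Of the co-receptors, Lrp6 fell by 18.1% in SeD (log2 fold change -0.29 ± 0.10, SE, adjusted p = 0.0351) and Lrp5 by 24.4% in SeS (-0.40 ± 0.14, adjusted p = 0.0398). The Lrp6 call was lost without any of 3 libraries, and with RLE scaling or DESeq2, where the log2 fold change of -0.22 was under the fold limit. The Lrp5 call was lost without any of 5 libraries. Znrf3 and Rnf43, the ligases that clear Frizzled, were not called in either diet.

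R-spondins and their receptors split. Rspo2, a mesenchymal R-spondin needed for lung branching in mouse, measured 9.71, 9.84 and 10.8 CPM in SeS RA at PN3, 7.12, 11.1 and 12.3 CPM in SeD RA, 2.65, 7.30 and 6.43 CPM in SeS O2 and 4.92, 5.38 and 5.90 CPM in SeD O2. No O2 library reached the RA libraries of its own diet. It fell by 46% in SeS (adjusted p = 0.0251) and 46.7% in SeD (adjusted p = 0.0162). The SeS call was lost without SeS O2 PN3 replicate 1 or SeS RA PN3 replicate 3, and the SeD call without SeD RA PN3 replicate 3. Rspo4 fell by 51.7% in SeD (log2 fold change -1.05 ± 0.32, SE, adjusted p = 0.0153), a call lost without SeD O2 PN3 replicate 1 (adjusted p = 0.0708) or SeD RA PN3 replicate 2.

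Rspo1, the most abundant R-spondin, stood at 22.6, 26.9 and 22.5 CPM in SeS RA and 37.2, 44.2 and 40.8 CPM in SeS O2. These did not overlap but did not pass the test (log2 fold change 0.77 ± 0.32, SE, adjusted p = 0.0785), and in SeD the levels overlapped. Rspo3 was called higher in SeD O2 (adjusted p = 0.0401) on 1 library: SeD O2 PN3 replicate 1 had 3.55 CPM, the other SeD O2 libraries 0.510 and 0.922 CPM, and the SeD RA libraries 0.883, 0.726 and 0.493 CPM. Without that library the log2 fold change was -0.00 and the adjusted p 1.0. Lgr4 in the same library stood at 35.5 CPM, against 11.9 to 17.9 CPM in the other 23.

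Lgr6, a receptor for R-spondins, measured 13.2, 11.3 and 10.4 CPM in SeS RA at PN3 and 5.37, 5.28 and 5.27 CPM in SeS O2. In SeD it measured 7.49, 14.2 and 14.1 CPM in RA and 3.98, 6.70 and 4.46 CPM in O2. All O2 libraries were below all RA libraries. The decrease was 54.3% in SeS (log2 fold change -1.13 ± 0.25, SE, adjusted p = 0.00422) and 57.6% in SeD (-1.24 ± 0.25, adjusted p = 0.00153).

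Lgr5 went the other way at a low level. It measured 0.734, 0.563 and 0.666 CPM in SeS RA, 0.797, 0.538 and 0.924 CPM in SeD RA, 2.15, 1.74 and 1.67 CPM in SeS O2 and 3.34, 1.83 and 1.69 CPM in SeD O2. All 6 O2 libraries were above all 6 RA libraries. The increase was 2.82-fold in SeS (log2 fold change 1.5 ± 0.32, SE, adjusted p = 0.00313) and 3.03-fold in SeD (1.60 ± 0.31, adjusted p = 0.0012). The receptor-gene sum moved with it, at 21.5 to 41.8 CPM in the RA libraries at PN3 and 210 to 399 CPM in the O2 libraries. That sum parted every O2 from every RA library at PN3, whichever gene is looked at. Its part in the Lgr5 result, or in other O2 results at PN3 such as that of Wnt3, was not tested.

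**Figure D4:**
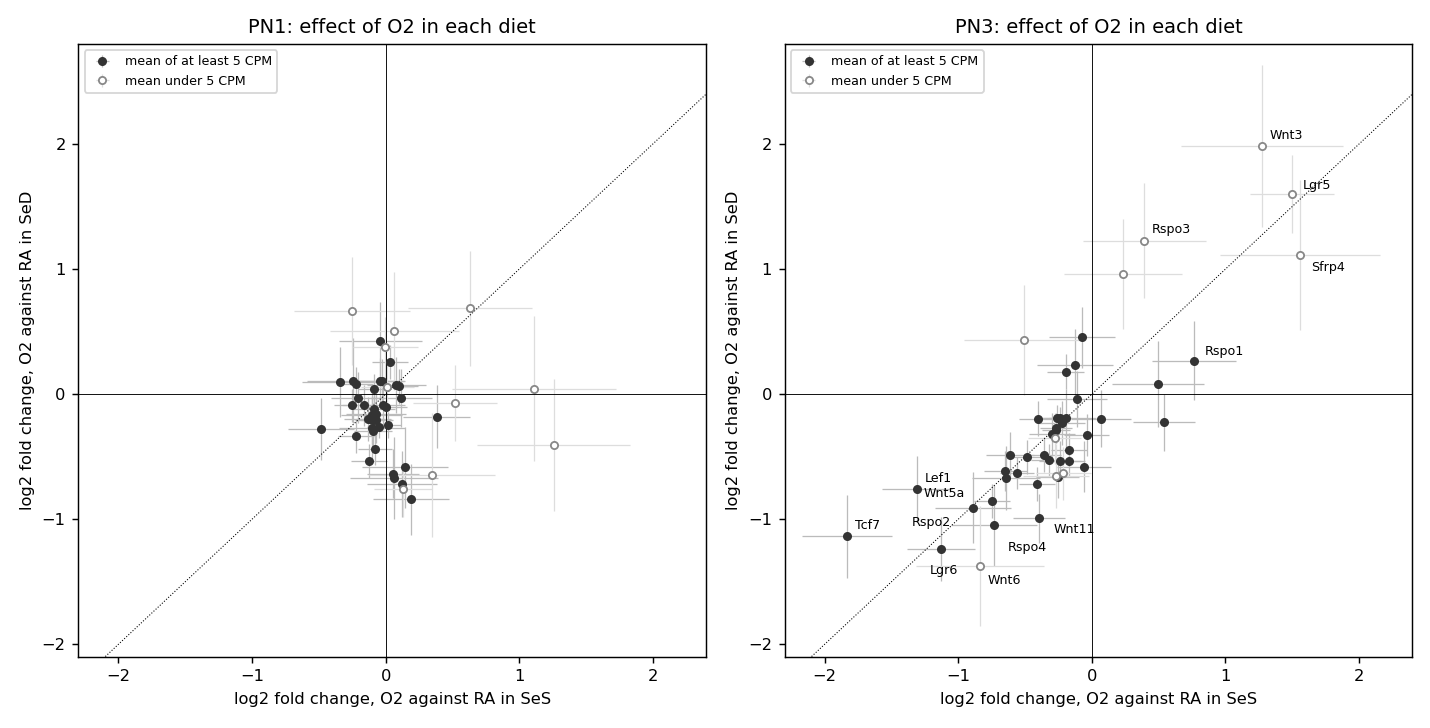
Log2 fold change of O2 against RA in SeS (x axis) and in SeD (y axis) for each of the 47 genes at PN1 and at PN3, with SE bars; filled dots have a mean of at least 5 CPM and the dotted line marks equal effects. At PN3 the lower left corner holds Tcf7 at -1.83 and -1.14 and Lgr6 at -1.13 and -1.24, and Lgr5 lies at 1.5 and 1.60.

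Several antagonist and Dickkopf genes fell as well. Wif1, a secreted inhibitor that binds Wnt ligands, measured 27.6, 25.7 and 33.1 CPM in SeS RA at PN3, 29.4, 27.8 and 32.9 CPM in SeD RA, 21.8, 22.4 and 20.8 CPM in SeS O2 and 16.4, 20.6 and 17.9 CPM in SeD O2. The O2 libraries were below the RA libraries. The decrease was 24.7% in SeS (adjusted p = 0.0294), lost without any of 4 libraries, and 39.1% in SeD (log2 fold change -0.72 ± 0.14, SE, adjusted p = 0.00108), which held without any 1 library.

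Notum, a secreted enzyme that removes the lipid of Wnt proteins, fell by 34.7% in SeS (adjusted p = 0.0169) and 28.5% in SeD (adjusted p = 0.0401), and these calls were lost without any of 2 libraries in SeS and any of 5 in SeD. Dkk3, the most abundant Dickkopf gene, fell by 31.1% in SeD (adjusted p = 0.0128), a call lost without SeD O2 PN3 replicate 1 (adjusted p = 0.0543). Dkk2 fell by 37.1% in SeD (adjusted p = 0.0446), lost without any of 4 libraries. None of Sfrp1, Sfrp2, Sfrp4 and Frzb, the secreted Frizzled-related proteins, was called in O2 against RA at PN3. Sfrp1 in SeS measured 18.2, 18.4 and 20.3 CPM in RA and 25.4, 27.8 and 29.6 CPM in O2, without overlap but without passing the test (log2 fold change 0.54 ± 0.23, SE, adjusted p = 0.0835). In SeD O2 it measured 10.1, 17.3 and 19.8 CPM, and SeD O2 against SeS O2 gave -0.81 ± 0.23 (adjusted p = 0.0846).

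Axin2, a scaffold of the β-catenin destruction complex that is itself a common target of β-catenin signalling, measured 51.6, 46.7 and 45.3 CPM in SeS RA at PN3 and 39.9, 54.8 and 44.9 CPM in SeD RA. In O2 it measured 28.2, 28.7 and 34.8 CPM in SeS and 24.1, 35.6 and 31.6 CPM in SeD. Every O2 library was below every RA library. The decrease was 36.1% in SeS (log2 fold change -0.65 ± 0.16, SE, adjusted p = 0.00672) and 34.6% in SeD (-0.61 ± 0.16, adjusted p = 0.00562), and the difference between the diets was 0.03 ± 0.22 (adjusted p = 0.99). Nkd1, an inhibitor of Dishevelled, fell by 26.7% in SeD (adjusted p = 0.0131) and was not called in SeS (log2 fold change -0.17 ± 0.13, SE). Axin1 stayed under the fold limit in both diets.

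Tcf7 and Lef1, Tcf/Lef factors that are also abundant in T cells and thymus, fell in O2 in both diets. Tcf7 measured 68.7, 198 and 61.3 CPM in SeS RA at PN3, 62.2, 55.9 and 57.7 CPM in SeD RA, 34.7, 28.8 and 28.7 CPM in SeS O2 and 25.9, 26.2 and 27.9 CPM in SeD O2. All O2 libraries were below all RA libraries, and the value of 198 CPM belonged to SeS RA PN3 replicate 2. It fell by 71.9% in SeS (log2 fold change -1.83 ± 0.34, SE, adjusted p = 0.00206) and by 54.5% in SeD (-1.14 ± 0.33, adjusted p = 0.0132). Lef1 measured 13.4, 25.1 and 13.4 CPM in SeS RA and 8.19, 6.90 and 5.91 CPM in SeS O2, and fell by 59.6% (adjusted p = 0.00251). In SeD it fell by 40.9% (adjusted p = 0.0276), from 9.85, 11.7 and 12.9 CPM to 8.18, 6.46 and 5.75 CPM, a call lost without any of 4 libraries.

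The lymphocyte and thymus markers were also highest in that SeS RA library, and their part in the Tcf7 and Lef1 results was not tested. All 8 markers were found, and their sum was 38.5, 47.5 and 187 CPM over the SeS RA libraries at PN3 in rising order, 18.2 to 43.8 CPM in SeD RA, 37.2 to 76.3 CPM in SeS O2 and 22.7 to 32.1 CPM in SeD O2. The markers did not move alike. Ms4a1 stood at 13.5, 12.2 and 13.1 CPM in SeS RA at PN3 and at 35.9, 19.4 and 24.2 CPM in SeS O2. Cd8a stood at 6.52, 54.1 and 4.91 CPM in SeS RA and at 4.58, 1.13 and 0.751 CPM in SeS O2. Cd79a moved with Ms4a1 and Cd4 with Cd8a. Cd3e, Cd3d, Dntt and Ptcra overlapped between these groups but had lower means in SeS O2. The means were 10.9, 6.01, 9.23 and 1.14 CPM in SeS RA and 1.99, 2.03, 0.972 and 0.228 CPM in SeS O2. SeS RA replicate 2 held the highest SeS RA value of each. The sum of the 8 markers thus joins genes that rose and genes that fell. Rag1, which cuts receptor genes in immature lymphocytes, was at 164 CPM in SeS RA PN3 replicate 2 and at 26.4 CPM or less in the other libraries of that age. Without this library the decrease in SeS was -1.09 for Tcf7 (log2, adjusted p = 0.00281) and -0.95 for Lef1 (adjusted p = 0.019), beside -1.16 for Lgr6. SeS RA replicates 1 and 3, still in that comparison, held Rag1 at 21.6 and 15.1 CPM, against 15.4, 1.5 and 1.59 CPM in SeS O2. The part of such transcripts in the remaining decreases was not tested.

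**Figure D5:**
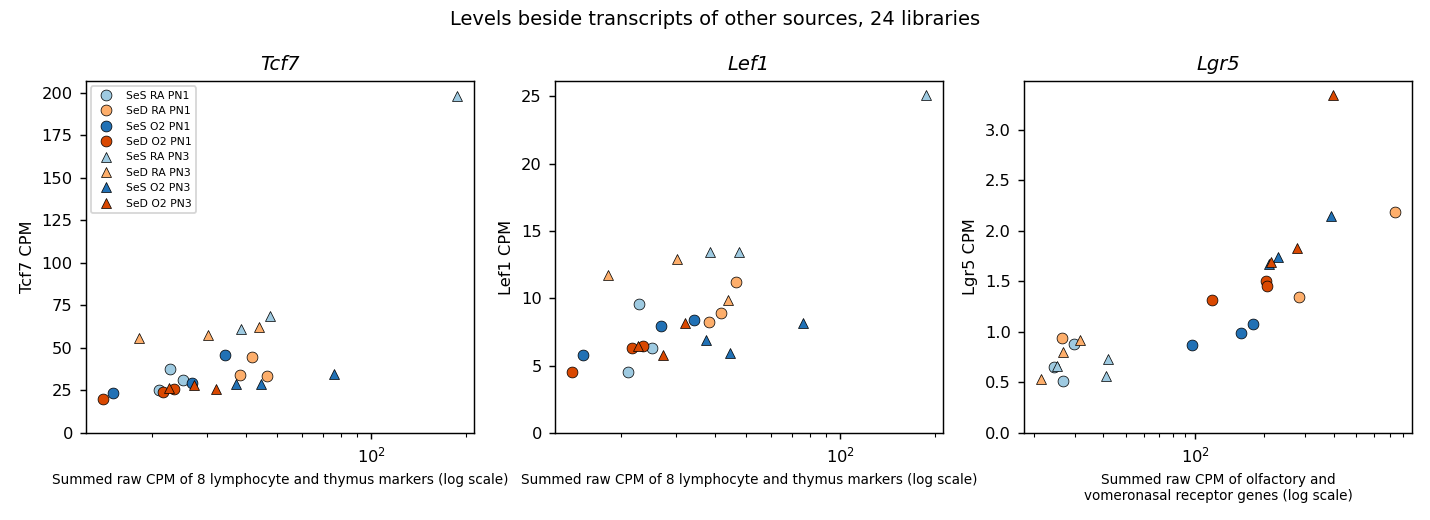
CPM of Tcf7 and Lef1 against the summed CPM of 8 lymphocyte and thymus markers, and CPM of Lgr5 against the summed CPM of olfactory and vomeronasal receptor genes (x axes log scaled), with 1 symbol per library. SeS RA PN3 replicate 2 lies alone at 187 CPM of markers and 198 CPM of Tcf7, and Lgr5 is at 1.67 CPM or more where the receptor-gene sum is 210 CPM or more at PN3.

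Markers of several lung cell types also moved between RA and O2 at PN3, each list found whole. The sum of 7 smooth muscle and myofibroblast markers was 1720 to 2320 CPM in SeS RA, 1760 to 2300 CPM in SeD RA, 1190 to 1730 CPM in SeS O2 and 835 to 2100 CPM in SeD O2. The sum of 7 fibroblast markers was 1440 to 1710 CPM in the RA libraries and 877 to 1430 CPM in the O2 libraries. The sum of 6 endothelial markers was 2210 to 2800 CPM in RA and 1100 to 2240 CPM in O2. In each of these lists the lowest sum was that of SeD O2 PN3 replicate 1, which held the liver transcripts. The other O2 libraries had 1260 to 1430 CPM of fibroblast and 1410 to 2240 CPM of endothelial markers. For smooth muscle and myofibroblasts, the other SeD O2 libraries had 2100 and 1170 CPM. The sum of 6 macrophage markers was 272 to 362 CPM in RA and 465 to 562 CPM in O2. The part of these shifts in the decreases of mesenchymal genes such as Wnt5a, Fzd1 and Rspo2 was not tested.

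Epithelial and mesothelial markers were higher in SeS O2, where Rspo1 and Sfrp1 also had their higher levels without passing the test. The sum of 6 mesothelial markers was 600 to 818 CPM in SeS RA and 1070 to 1090 CPM in SeS O2, and 634 to 961 CPM in SeD RA and 383 to 1390 CPM in SeD O2. The sum of 7 alveolar type 2 markers was 12400 to 15000 CPM in SeS RA and 17600 to 20100 CPM in SeS O2, and 12400 to 16800 CPM in SeD RA and 8630 to 24000 CPM in SeD O2. Airway markers summed to 2320 to 3470 CPM in SeS RA and 3630 to 4420 CPM in SeS O2, and to 2500 to 3210 CPM and 1640 to 3030 CPM in SeD RA and SeD O2. Alveolar type 1 markers summed to 3990 to 4670 CPM and 4690 to 5520 CPM in SeS, and to 3800 to 4830 CPM and 1950 to 5910 CPM in SeD. The groups did not overlap in SeS and overlapped in SeD for each of these lists, and in SeD O2 the lowest sum was always that of replicate 1, which held the liver transcripts. Their part in the levels of Rspo1 and Sfrp1 was not tested.

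Many other genes of the pathway were lower in O2 at PN3, less clearly so among the inhibitors and the targets of β-catenin. Of all genes tested 11.5% in SeS and 12.2% in SeD were called lower. Among all genes with a mean of at least 5 CPM the shares were 19.5% and 20.5%. Of 17 tested genes for Wnt secretion, co-receptors and planar polarity, 10 were lower in O2 in SeS and 10 in SeD with none higher, and the median log2 fold changes were -0.50 and -0.50. Vangl2, a core polarity protein, was at -0.71 ± 0.12 in SeS (SE, adjusted p = 0.000819) and -0.91 ± 0.12 in SeD (adjusted p = 7.9e-05). Prickle2 was at -0.50 ± 0.13 and -0.88 ± 0.14, and Celsr2 at -0.86 ± 0.15 and -0.80 ± 0.15. Wls and Porcn, which all Wnt ligands need for secretion, were not called, with Wls at 0.14 ± 0.16 in SeS and -0.08 ± 0.16 in SeD.

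Of 25 intracellular mediators of β-catenin signalling, 16 were lower in SeS and 18 in SeD, with none higher and medians of -0.32 and -0.37. The β-catenin cofactors Bcl9 (-0.61 ± 0.09 in SeS and -0.68 ± 0.09 in SeD, SE) and Bcl9l (-0.68 ± 0.11 and -0.71 ± 0.11) were among them, as was Apc2 (-0.85 ± 0.21 and -0.79 ± 0.21). Of 10 further genes listed as inhibitors, 2 were lower and 1 higher in SeS and 4 lower and 1 higher in SeD. The 4 include Cthrc1 (-0.68 ± 0.18), and whether each listed gene inhibits Wnt signalling in these lungs was not tested. The 2 in SeS were Shisa2 and Sost. Sost (mean 1.21 CPM), Draxin (0.944 CPM) and Sostdc1 lay under 5 CPM. The 2 of 10 thus cannot be set against the 19.5% given above, which leaves out genes of such low level. Shisa2, whose frog relative Shisa holds Frizzled inside the cell, fell (-0.58 ± 0.15 and -0.79 ± 0.15), Apcdd1 fell in SeD (-0.70 ± 0.15), and Sostdc1, at a mean of 0.339 CPM, was higher (1.81 ± 0.47 and 2.46 ± 0.49). The receptor-gene sum was also higher in the O2 libraries, and its part in the rise of Sostdc1 was not tested. Of 12 known targets of β-catenin outside the 47 genes, 4 were lower in SeS and 3 in SeD, with none higher and medians of -0.20 and -0.15. Tbx3 (-0.75 ± 0.14 and -0.88 ± 0.14), Sox4 (-0.63 ± 0.16 and -0.74 ± 0.16) and Tnfrsf19 (-0.44 ± 0.16 and -0.66 ± 0.16) fell in both diets. Myc was called in SeS only (-0.53 ± 0.19 and -0.03 ± 0.19). The rest were not called and went both ways. Ccnd1 (0.18 and 0.14) and Id2 (0.17 and 0.11) were slightly higher, and Sp5 (-0.51 and -0.60) was lower. Sp5 (mean 4.2 CPM) and Ascl2 (0.38 CPM) also lay under 5 CPM, and neither was among the 3 lower in SeD. The 3 of 12 thus cannot be set against the 20.5% given above, which leaves out such genes.

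At PN1 few of these genes were called. None of the 47 was called in O2 against RA in SeS, where 0.0587% of all genes were called, by edgeR, DESeq2 or RLE scaling, and 1 was called by voomWithQualityWeights. One of the 47, Wnt3, had an unadjusted p under 0.05. In SeD, Nkd1 alone was called, beside 2.5% of all genes. It measured 108, 92.7 and 128 CPM in RA and 74, 79.1 and 73.8 CPM in O2, which did not overlap, and it fell by 30.9% (log2 fold change -0.53 ± 0.14, SE, adjusted p = 0.0384), a call that was lost without SeD RA PN1 replicate 3 or any 1 of the SeD O2 libraries. The count was 6 without SeD RA PN1 replicate 2 and was 10 in DESeq2. Wnt5a measured 52.5, 53.5 and 55.1 CPM in SeS O2 at PN1 against 59, 64.9 and 64.1 CPM in SeS RA without being called.

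The effect of O2 at PN3 was compared with that at PN1 directly. In SeS none of the 47 genes differed, and 10 had an unadjusted p under 0.05, with 0.0% of all genes called by edgeR, while DESeq2 called 1 member and voomWithQualityWeights 4. In SeD 4 of the 47 differed, beside 17.9% of all genes. Wif1 differed by -0.97 ± 0.19 (log2, SE, adjusted p = 0.00656), Fzd3 by -0.57 ± 0.19 (adjusted p = 0.0406), Fzd10os by -1.03 ± 0.35 (adjusted p = 0.0479) and Lgr5 by 1.67 ± 0.43 (adjusted p = 0.0122). None of the 4 was called without the 3 libraries with the most Alb, or without SeD RA PN1 replicates 1 and 2, the libraries with the most receptor-gene counts. For Wnt5a the change in the O2 effect was -0.53 ± 0.19 in SeS (adjusted p = 0.386) and -0.52 ± 0.19 in SeD (adjusted p = 0.0638), so a larger effect at PN3 was not shown for it.

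Diet alone left few marks. At PN1 in RA, Lgr5 was higher and Fzd3 lower in SeD than in SeS, 2 of the 47 genes beside 14.6% of all genes. Lgr5 measured 0.510, 0.883 and 0.655 CPM in SeS and 1.34, 2.19 and 0.935 CPM in SeD (log2 fold change 1.12 ± 0.31, SE, adjusted p = 0.0191), and Fzd3 measured 31.9, 33.4 and 31.4 CPM in SeS and 22.7, 21.2 and 26.6 CPM in SeD (-0.46 ± 0.13, adjusted p = 0.0238). The groups did not overlap in either gene. The Lgr5 call was lost without any of 3 libraries and the Fzd3 call without any of 5. In SeD RA PN1 replicates 1 and 2 the receptor-gene sum was 282 and 737 CPM. Leaving out both leaves 1 SeD library, which cannot decide, and the part of such transcripts in these results was not tested.

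None of the 47 genes was called between the diets in O2 at PN1 (0.0126% of all genes called by edgeR), in RA at PN3 (0.0126%) or in O2 at PN3 (0.143%). Unadjusted p was under 0.05 for 5, 2 and 6 genes. DESeq2 called 0, 0 and 1, and voomWithQualityWeights 0 in each. The most different members with at least 5 CPM at PN3 were Tcf7 in RA (-0.90 ± 0.33, log2, SE, adjusted p = 1.0), where SeS replicate 2 with the thymus markers is on the SeS side, and Sfrp1 in O2. For Wnt5a SeD against SeS gave -0.02 ± 0.13 in RA at PN3, and for Axin2 -0.04 ± 0.16.

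The interaction of diet and O2 asks whether SeD altered the O2 effect. None of the 47 genes, and 0.0% of all genes, was called at PN1 or at PN3 by edgeR. Unadjusted p was under 0.05 for 6 and 2 of the 47. DESeq2 called none, and voomWithQualityWeights called 3 at PN1 and none at PN3. At PN3 the interaction was -0.11 ± 0.19 for Wnt5a, -0.07 ± 0.18 for Fzd1, -0.11 ± 0.35 for Lgr6, -0.02 ± 0.40 for Rspo2 and -0.31 ± 0.19 for Wif1 (log2, SE). The largest values among genes with at least 5 CPM were -0.77 ± 0.32 for Sfrp1 (adjusted p = 0.563) and 0.69 ± 0.47 for Tcf7 (adjusted p = 0.742) at PN3, and -1.03 ± 0.40 for Rspo2 at PN1 (adjusted p = 0.171). The 12 genes called lower in SeD but not in SeS were therefore not shown to respond differently.

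SeD O2 pups were also set against SeS RA pups. At PN1, 4 of the 47 genes were called, beside 8.98% of all genes. Fzd1 fell by 26.3% (adjusted p = 0.0371), Lrp6 by 21.9% (adjusted p = 0.0388) and Wnt5a by 26.7% (adjusted p = 0.0432), and Lgr5 rose 2.07-fold (adjusted p = 0.0412). None of these 4 genes was called without SeD O2 PN1 replicate 1 or 2, without SeS RA PN1 replicate 2 or 3, or with the conflicting library counted as RA. At PN3, 24 were lower and 1 higher, beside 13.8% lower and 22.6% higher of all genes (36.4% called), and the count was 14 without SeS RA PN3 replicate 3. Ordered by adjusted p, the first genes were Wnt5a (-0.88 ± 0.14, log2, SE, adjusted p = 0.000206), Lgr5 (1.80 ± 0.32, adjusted p = 0.000542), Tcf7 (-2.04 ± 0.34, adjusted p = 0.000597) and Lef1 (-1.35 ± 0.26, adjusted p = 0.0012). Then came Fzd1 (-0.63), Wif1 (-0.65), Lgr6 (-1.20), Wnt11 (-0.87), Fzd6 (-0.59), Axin2 (-0.65), Wnt5b (-0.61) and Fzd4 (-0.47), with adjusted p between 0.00137 and 0.0076. All 12 of these calls held without any 1 library, with Tcf7 at -1.29 and Lef1 at -0.98 without SeS RA PN3 replicate 2. Wnt9a (-0.45 ± 0.18, log2, SE, adjusted p = 0.0497), Fzd10 (-0.56 ± 0.20, adjusted p = 0.0332), Axin1 (-0.27 ± 0.09, adjusted p = 0.0169) and Fzd10os (-0.94 ± 0.26, adjusted p = 0.00781) were called here and in neither O2 comparison within a diet. The Fzd10 call was lost without any 1 of its 6 libraries, that of Wnt9a without any of 4 and that of Axin1 without any of 3, while that of Fzd10os held.

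From PN1 to PN3 some members rose in room air. In SeS RA, Wnt11, Wnt10b, Lef1 and Tcf7 rose and none fell, 4 of 47 beside 1.15% of all genes. Wnt11 went from 11.1, 14.2 and 13.9 CPM to 28.9, 24.4 and 22.3 CPM, without overlap, a rise of 1.93-fold (log2 fold change 0.95 ± 0.20, SE, adjusted p = 0.0218). Each of these 4 calls was lost without any of 3 or 4 libraries, and those of Tcf7 and Lef1 without SeS RA PN3 replicate 2, the library with the thymus markers.

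In SeD RA, Wnt11 rose 1.63-fold (adjusted p = 0.0133), Fzd3 1.41-fold (adjusted p = 0.0116) and Wnt5a 1.36-fold (adjusted p = 0.0234), while Lgr5 fell by 49.5% (adjusted p = 0.0271) and Wnt3 by 86.7% (adjusted p = 0.00484), 5 of 47 beside 21.8% of all genes. None of the 5 was called without SeD RA PN1 replicate 2, the library with the highest receptor-gene sum. SeD RA PN1 was also the group with the highest raw mean of Wnt3, 0.593 CPM, close above the level minimum of 0.5 CPM. The rule that took Wnt3 in thus favoured a fall from that group, so no weight is put on this fall. In SeS O2 none of the 47 was called with age by edgeR, beside 0.185% of all genes, with 10 at an unadjusted p under 0.05, 0 in DESeq2 and 5 in voomWithQualityWeights. In SeD O2, Wif1 fell by 36.8% (adjusted p = 0.0129), from 27.4, 34.4 and 25.2 CPM to 16.4, 20.6 and 17.9 CPM, and Fzd10os fell by 63.4% (adjusted p = 0.00544), beside 2.71% of all genes. The Wif1 call was lost without SeD O2 PN1 replicate 2 (adjusted p = 0.0556).

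Wnt5b, Wnt6, Axin2, Fzd1 and Fzd8 were followed through every comparison. Outside O2 against RA at PN3, Wnt5b and Axin2 were called in SeD O2 against SeS RA at PN3, Fzd1 was called in SeD O2 against SeS RA at both ages, and Wnt6 and Fzd8 were not called. Where not called, log2 fold changes ran from -0.58 ± 0.23 to 0.25 ± 0.16 (SE) for Wnt5b and from -1.19 ± 0.67 to 0.95 ± 0.47 for Wnt6. They ran from -0.56 ± 0.22 to 0.32 ± 0.16 for Axin2, from -0.48 ± 0.18 to 0.27 ± 0.13 for Fzd1 and from -0.31 ± 0.17 to 0.13 ± 0.17 for Fzd8. In each case the lowest was a change of the O2 effect from PN1 to PN3, and the highest was a change with age in RA, except for Fzd8, where it was the interaction at PN1. Wnt5b and Wnt6 in SeS O2 against RA at PN3 stood at -0.26 ± 0.16 and -0.84 ± 0.48.

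In each comparison the uncalled gene with the largest fold among those with at least 5 CPM is given here or above. At PN1 these were Lgr6 for O2 against RA in SeS (-0.48 ± 0.25, log2, SE) and for SeD O2 against SeS RA (-0.51 ± 0.25), Rspo2 for O2 against RA in SeD (-0.84 ± 0.28) and for diet in RA (0.62 ± 0.28), and Tcf7 for diet in O2 (-0.48 ± 0.33). At PN3 they were Rspo1 for O2 against RA in SeS, Lgr4 in SeD (0.45 ± 0.25) and Rspo1 for SeD O2 against SeS RA (0.44 ± 0.32). With age they were Rspo4 in SeS RA (1.12 ± 0.32) and SeD RA (0.68 ± 0.32), and Dkk2 in SeS O2 (-0.87 ± 0.25) and SeD O2 (-0.67 ± 0.26). For the change of the O2 effect with age they were Tcf7 in SeS (-1.89 ± 0.47) and Lgr6 in SeD (-0.96 ± 0.35).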

How the data were processed

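Lung poly(A) RNA of 24 mice was sequenced from stranded libraries. The authors deposited raw read counts per gene from featureCounts 2.0.6, made after trimming (trimmomatic 0.39) and alignment (HISAT2 2.2.1, GRCm39), with no pooling. The annotation release and the strand setting of the counting are not given in the sources used here. A deposited sheet of size-factor normalized counts and 7 sheets of the authors' own fold changes and p-values were not used. Columns are headed by mouse number and were matched to samples through the deposited sheet of groups. Counts were tested with edgeR 4.0.16 in R 4.3.3 (TMM scaling, filterByExpr with a minimum count of 10 and a minimum total of 15, 1 mean for each of 8 groups, robust quasi-likelihood F test, Benjamini-Hochberg adjustment over 23831 genes), after the steps had been tested on simulated data. Each SE was derived from the F statistic and the log2 fold change. CPM of the 47 genes use TMM scaling; those of the level minimum and of marker lists use raw totals. CPM per kb divides by exon length in GRCm39 gene models. Alternatives used DESeq2 1.42.0, limma 3.58.1 (voomWithQualityWeights), RLE scaling, no filter, the groups compared alone, a replicate block, and libraries left out.

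In each comparison the text names the called genes, at most the 12 with the smallest adjusted p, and, of the genes averaging 5 CPM or more, the uncalled one with the largest fold change. It always takes in Wnt5b, Wnt6, Axin2, Fzd1 and Fzd8, and for each other pathway list the 3 genes with the smallest adjusted p. Other genes were named after their values were seen, to account for all genes called or for their role. The 47 genes and all lists were chosen with earlier results of these data known.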

Additional observations from a re-analysis of the deposited data

Results flagged for a closer look

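The change with O2 differed between PN1 and PN3 in SeD pups for 4 of the 47 genes, by an edgeR test of the difference itself (log2, PN3 minus PN1). Wif1 differed by -0.97, with O2 against RA at 0.26 at PN1 and -0.72 at PN3. Lgr5 differed by 1.67, from -0.07 to 1.60. Fzd3 differed by -0.57, from 0.08 to -0.49, and Fzd10os by -1.03, from 0.37 to -0.65. The Lgr5 call was lost without SeD RA PN1 replicate 2, the Fzd3 call without any of 7 and the Fzd10os call without any of 10 of the 12 libraries.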

How the results depend on the processing

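Numbers in this paragraph are genes called among the 47. For O2 against RA in SeS at PN3 the count was 13, and 22 with only the groups compared, 24 with voomWithQualityWeights and 23 without the 3 libraries with the most Alb. In SeD at PN3 it was 26, and 14 with only the groups compared. In SeD at PN1 it was 1, and 10 with DESeq2, 6 with RLE scaling, 5 with no filter, 3 with only the groups compared, 8 with voomWithQualityWeights, 7 without the 3 libraries with the most Alb and 3 without the 2 SeD RA PN1 libraries with the most receptor-gene counts. In SeS at PN1 it was 0, and 1 with only the groups compared and 1 with voomWithQualityWeights. For SeD O2 against SeS RA it was 25 at PN3, and 13 with only the groups compared. At PN1 it was 4, and 7 with DESeq2, 9 with only the groups compared, 18 with voomWithQualityWeights, 9 without the 2 receptor-gene libraries and 0 with the library of conflicting oxygen label counted as SeS RA. For SeD against SeS in RA at PN1 it was 2, and 4 with DESeq2, 4 with RLE scaling, 4 with edgeR without robust estimation, 7 with voomWithQualityWeights, 0 with only the groups compared and 0 with the conflicting library counted as SeS RA. In O2 at PN3 DESeq2 called 1 against 0, and for the interaction at PN1 voomWithQualityWeights called 3 against 0. With age, SeS RA gave 4, and 10 with voomWithQualityWeights and 7 without the 3 libraries with the most Alb. SeS O2 gave 0, and 4 with only the groups compared, 5 with voomWithQualityWeights and 1 without the 3 libraries. SeD RA gave 5, and 0 with only the groups compared and 21 with voomWithQualityWeights. SeD O2 gave 2, and 0 with only the groups compared. For the O2 effect at PN3 against PN1, SeS gave 0, and 1 with DESeq2, 1 with only the groups compared and 4 with voomWithQualityWeights. SeD gave 4, and 2 with no filter, 2 with the conflicting library counted as SeS RA, 7 with voomWithQualityWeights and 0 with only the groups compared. The cause of these moves was not tested. Leaving out the 2 receptor-gene libraries and edgeR without robust estimation were chosen after seeing the data. In SeS at PN3 the higher and lower calls were 1 and 12, and 3 and 11 with RLE scaling, 4 and 11 with DESeq2 and 6 and 18 with voomWithQualityWeights. RLE scaling moved the median of the 47 genes by 0.13 (log2) for the O2 effect in SeD, and by 0.07 or less elsewhere. With the replicate number as a block, the count for O2 against RA in SeD at PN1 was 2 in place of 1, and no other count moved by over 1.5 times. Libraries of one number did not deviate together on average (mean correlation 0.0166 at PN1 and -0.0489 at PN3), and the main test did not pair them. Single correlations ran as low as -0.826 at PN3, so with 3 libraries per group this check cannot exclude a pairing. Leaving out 1 library at a time gave 8 to 17 for O2 against RA in SeS and 17 to 30 in SeD at PN3, 0 to 6 in SeD and 0 to 0 in SeS at PN1, 14 to 30 at PN3 and 0 to 4 at PN1 for SeD O2 against SeS RA, 0 to 5 for SeD against SeS in RA at PN1, 0 to 1 in O2 at PN3, and 0 to 1 for the interaction at PN1. With age it gave 0 to 4 in SeS RA, 0 to 7 in SeD RA and 1 to 6 in SeD O2, and 1 to 7 for the O2 effect in SeD. The Rspo3 log2 fold change in SeD at PN3 turned from 1.23 to -0.011 without the 3 libraries with the most Alb, and ranged from -0.00 (without SeD O2 PN3 replicate 1) to 1.657 (without SeD O2 PN3 replicate 2) with 1 library left out. Low levels limit Wnt3, Wnt6, Sfrp4, Rspo3 and Lgr5, where few reads stand behind a fold.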
